A study of Mus musculus with 16 samples.

Results

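The long noncoding RNAs Neat1, Malat1, Gas5, Snhg1, Snhg12, Epb41l4aos and Kcnq1ot1 were followed through sulforaphane treatment and hyperosmotic stress in mIMCD3 cells, a mouse line from the inner medullary collecting duct of the kidney. The members were the rows with these 7 symbols among the 55367 gene symbols of the count files; all 7 were found, and all 7 passed the filter on low counts. The study had 16 RNA-seq libraries in 8 groups of 2. Wild-type (WT) cells received the vehicle DMSO or 10 uM sulforaphane (SFN), an isothiocyanate that activates the transcription factor Nrf2, for 5 h, and were then kept in isosmotic medium or exposed to 600 mOsm hyperosmotic medium for 1 h or 6 h. Nrf2-/- cells were present only as SFN-treated cells, in isosmotic medium and at 1 h of stress, so that no DMSO-treated or 6 h Nrf2-/- library was compared. The Nrf2-/- line had been made by successive lentiviral delivery of Cas9 and a guide RNA with drug selection, and whether it was 1 clone is not given in the sources used here; the loss of Nrf2 and the derivation of the line cannot be told apart in any comparison with WT cells.

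Neat1 is the architectural RNA of paraspeckles, nuclear bodies that assemble around it while it is being transcribed. Malat1 lies next to Neat1 in the genome and accumulates in nuclear speckles, where splicing factors are stored. Gas5, Snhg1, Snhg12 and Epb41l4aos are small nucleolar RNA (snoRNA) host genes: snoRNAs, which guide chemical modification of ribosomal RNA, are cut out of their introns, and the spliced host RNAs of Gas5 and Snhg1 are known to be removed by nonsense-mediated decay during translation. Kcnq1ot1 is the long antisense transcript of the imprinted Kcnq1 domain, made from the paternal allele, on which it silences neighbouring genes.

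Counts per library summed to between 34484296 and 50774875, and the 7 members took 0.0286% to 0.241% of them. Nfe2l2, which encodes Nrf2, had 66.9 to 78.0 CPM (read counts scaled for library size and composition) in isosmotic SFN-treated WT libraries and between 11.02 and 11.6 CPM in the 4 Nrf2-/- libraries, with 386 to 433 counts behind those values. Epithelial genes of the collecting duct were present, with Krt8 at 650 to 1109 CPM and Cdh1 at 138 to 462 CPM, whereas the water channels Aqp2 and Aqp3 stayed at or below 0.323 and 0.821 CPM. Of 17 markers of other cell types, 6 averaged 1 CPM or more, and Umod had no count. The 2 libraries of Nrf2-/- cells at 1 h stood apart from each other: their biological coefficient of variation was 0.348, against 0.0393 to 0.128 within the other 7 pairs. They are therefore given one by one, and comparisons that do not need them were fitted on the other 14 libraries. The study calls the libraries of a group biological replicates without saying how they were raised, and p-values measure the spread between those libraries.

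The genes lie as follows in the mm10 assembly (GENCODE M21 on GRCm38). Neat1, at chr19:5824708-5845478 on the minus strand, and Malat1, at chr19:5795690-5802672 on the same strand, are each covered by a single exon block, and the short and long forms of Neat1 share 1 row of counts. Gas5 lies at chr1:161034422-161038539, Snhg1 at chr19:8723475-8726443 and Snhg12 at chr4:132308623-132311024, all on the plus strand. Kcnq1ot1, at chr7:143203458-143296549 on the minus strand, lies wholly within Kcnq1, whose own row held 0 to 8 counts per library, so that few reads there were assigned to the sense gene. Whether reads were counted by strand is not given in the sources used here. Gas5 and the coding gene Zbtb37 overlap by 428 bases on opposite strands with no shared exon. The annotation places 21 snoRNA symbols within exons of Gas5, Snhg1 or Snhg12, among them Snord47 and Snord78 in Gas5, Snord22 in Snhg1, and Snora44 and Snord99 in Snhg12. Of these, 20 had a row, and all 20 were at 0 in all 16 libraries. Whether the host rows hold reads from these snoRNAs cannot be told, since the annotation and settings used for counting are not given.

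RefSeq holds promoters for 5 of the 7 members on GRCm38.p6, each 250 bases before the start and 50 from it on. The promoters of the hosts that moved together, of Malat1 and of Kcnq1ot1 are shown 5′ to 3′ on the strand of the gene, with the start at base 251. Capitals mark a run of pyrimidines at the start, the usual form of start in genes of the translation machinery, and matches to the motifs named afterwards.
Gas5, chr1:161034916-161035215, plus strand: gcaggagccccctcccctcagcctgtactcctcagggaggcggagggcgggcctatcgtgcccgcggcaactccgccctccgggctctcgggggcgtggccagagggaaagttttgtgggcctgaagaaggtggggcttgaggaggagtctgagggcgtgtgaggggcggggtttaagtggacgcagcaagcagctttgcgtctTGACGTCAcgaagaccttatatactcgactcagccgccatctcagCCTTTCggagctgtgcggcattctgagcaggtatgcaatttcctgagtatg
Snhg1, chr19:8723237-8723536, plus strand: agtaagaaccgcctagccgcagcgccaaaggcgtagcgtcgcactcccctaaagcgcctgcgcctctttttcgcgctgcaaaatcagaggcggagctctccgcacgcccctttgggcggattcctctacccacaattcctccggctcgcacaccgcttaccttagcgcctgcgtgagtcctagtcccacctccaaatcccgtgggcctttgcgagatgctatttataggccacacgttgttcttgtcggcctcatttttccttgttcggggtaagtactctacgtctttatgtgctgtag
Snhg12, chr4:132308428-132308727, plus strand: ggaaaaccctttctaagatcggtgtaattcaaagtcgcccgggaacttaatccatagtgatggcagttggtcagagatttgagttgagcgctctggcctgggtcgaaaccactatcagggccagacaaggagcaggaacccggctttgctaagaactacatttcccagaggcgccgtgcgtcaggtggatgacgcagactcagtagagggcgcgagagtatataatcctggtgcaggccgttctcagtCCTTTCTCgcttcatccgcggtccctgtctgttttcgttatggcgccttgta
Malat1, chr19:5802623-5802922, minus strand: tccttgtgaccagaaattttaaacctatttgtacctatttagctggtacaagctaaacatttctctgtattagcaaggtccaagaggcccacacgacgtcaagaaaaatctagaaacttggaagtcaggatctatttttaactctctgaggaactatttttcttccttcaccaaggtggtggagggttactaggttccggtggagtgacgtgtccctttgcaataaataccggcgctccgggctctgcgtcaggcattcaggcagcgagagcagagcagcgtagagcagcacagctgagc
Kcnq1ot1, chr7:143296498-143296797, minus strand: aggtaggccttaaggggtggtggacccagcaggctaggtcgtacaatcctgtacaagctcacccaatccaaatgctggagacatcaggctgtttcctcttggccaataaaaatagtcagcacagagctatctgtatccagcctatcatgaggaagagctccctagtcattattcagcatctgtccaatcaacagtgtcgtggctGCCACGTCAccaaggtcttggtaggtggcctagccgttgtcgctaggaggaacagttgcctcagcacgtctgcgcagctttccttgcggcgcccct
At the Gas5 start shown, the second of its 2 RefSeq starts, the run CCTTTC began 1 base before the start, and in Snhg12 the run CCTTTCTC began 2 bases before it. A C followed by 4 or more pyrimidines near the start was found in 30.7% of the 32851 promoters. The cAMP response element TGACGTCA lay 46 bases before the Gas5 start and was found in 1.79% of promoters. The core of the antioxidant response element that Nrf2 binds (TGACNNNGC, found in 12.4% of promoters) matched on the opposite strand 46 bases before the Kcnq1ot1 start, as GCCACGTCA. The core letters bound by the osmotic factor NFAT5 (TGGAAA, 21.4% of promoters) and of the heat shock element (GAANNTTC, 7.86%) were not in these windows on either strand. A match describes these letters only.

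In isosmotic DMSO-treated WT cells, the level per length of exon was highest for Malat1, at 77.0 RPKM, followed by Gas5 at 44.4, Epb41l4aos at 41.2, Snhg1 at 28.7, Neat1 at 18.5 and Snhg12 at 6.93 RPKM. Kcnq1ot1 was far below them, at 0.0524 RPKM over its 93092 bases. These values divide by the annotated exons, which hold intron sequence in Gas5, Snhg1 and Snhg12 and the whole long form of Neat1. The exons of Epb41l4aos, 430 of 1095 bases, leave its snoRNA in an intron, so the hosts are not on 1 basis. The plot of levels by library shows that the 7 RNAs did not move as 1 group.

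**Figure D1:**
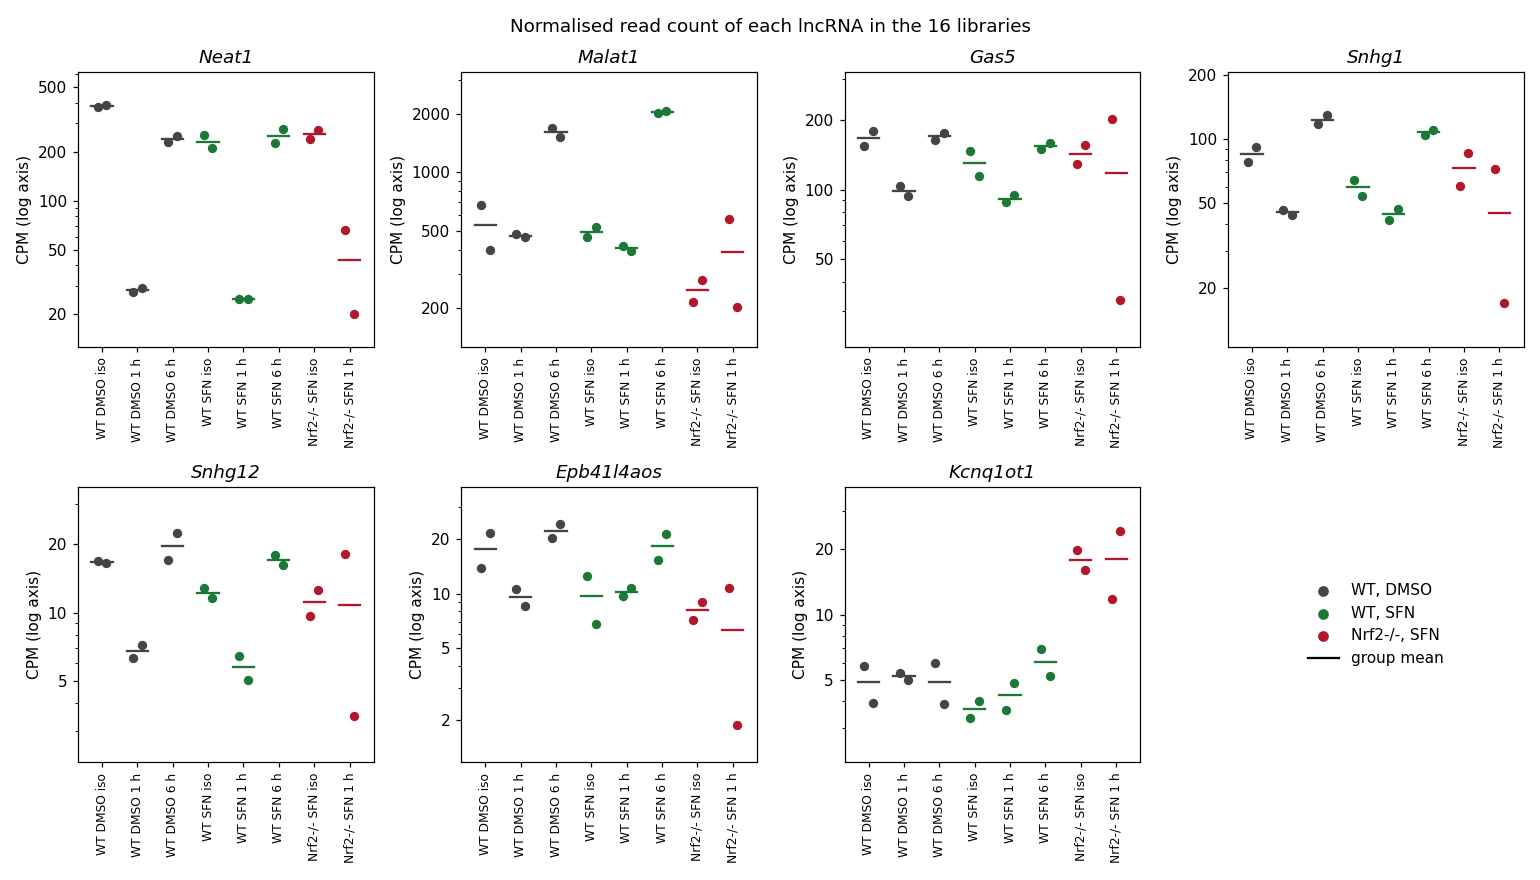
Normalised read count (CPM, log axis) of the 7 lncRNAs in the 16 libraries, with a point for each library and a bar for the group mean. Neat1 and the hosts Gas5, Snhg1 and Snhg12 had low levels at 1 h of stress in WT cells. Malat1 was highest at 6 h, and Kcnq1ot1 was highest in Nrf2-/- cells. The 2 Nrf2-/- libraries at 1 h lie apart for all 7 members, with Kcnq1ot1 higher in replicate 2 and the others in replicate 1.

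To see how stress acted on these RNAs in unprimed cells, DMSO-treated WT cells at 1 h were compared with isosmotic cells. Neat1 fell most among the 7 members. It had 379 and 387 CPM in the isosmotic libraries and 27.6 and 29.2 CPM after 1 h. The groups lay far apart, and the change was 13.6-fold lower (log2 −3.76, SE 0.10, adjusted p = 1.08e-17, edgeR quasi-likelihood test). SFN-treated cells showed the fall as well, from 252 and 210 CPM to 25.0 and 24.8 CPM, which was 9.28-fold lower (log2 −3.21, SE 0.10, adjusted p = 2.83e-16). By 6 h the level had returned to 230 and 251 CPM with DMSO and to 227 and 276 CPM with SFN. The rise from 1 h to 6 h was 8.36-fold with DMSO (log2 3.06, SE 0.10, adjusted p = 1.11e-17) and 9.91-fold with SFN (log2 3.31, SE 0.10, adjusted p = 3.36e-18). In order of level, isosmotic DMSO-treated cells stood first at a mean of 383 CPM. The groups of isosmotic Nrf2-/-, 6 h SFN, 6 h DMSO and isosmotic SFN-treated cells followed, with means of 256, 251, 241 and 231 CPM and overlapping libraries. The groups at 1 h closed the order. Since the libraries are bulk RNA, fewer cells with the RNA and less RNA per cell cannot be told apart.

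The mRNAs of the proteins that build paraspeckles moved little beside Neat1. Of 14 tested, 5 were lower at 1 h with DMSO, with Ewsr1 (log2 −0.39, adjusted p = 9.98e-05) and Hnrnph3 (log2 −0.39, adjusted p = 0.0141) falling most, and their median log2 change was −0.11 against −0.00 over all genes. At 6 h with DMSO, 5 were higher, led by Hnrnph3 (log2 0.63), and 2 were lower, of which Pspc1, a core paraspeckle protein, fell most (log2 −1.03, SE 0.08, adjusted p = 7.79e-11). Of all genes, 9.33% were lower at 1 h, and 28% were higher and 28.7% lower at 6 h. The coding gene Frmd8, on the other side of Neat1 from Malat1, had 87.3 and 87.5 CPM before stress and 100 and 102 CPM at 1 h, a change of 0.21 on the log2 scale (adjusted p = 0.0459).

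Among the snoRNA hosts, Gas5, Snhg1 and Snhg12 fell at 1 h with DMSO. With Neat1, 4 of 7 members were lower and none was higher, where 9.33% of all 19209 genes tested were lower; the median log2 change was −0.90 over the members and −0.00 over all genes. Gas5 went from 154 and 180 CPM to 104 and 93.8 CPM, 1.70-fold lower (log2 −0.76, SE 0.11, adjusted p = 7.25e-05). Snhg1 went from 78.2 and 92.4 CPM to 46.8 and 44.0 CPM, 1.89-fold lower (log2 −0.92, SE 0.15, adjusted p = 0.000502). Snhg12 went from 16.8 and 16.5 CPM to 6.31 and 7.21 CPM, 2.48-fold lower (log2 −1.31, SE 0.16, adjusted p = 1.26e-06). In each of the 3 hosts both stressed libraries lay below both isosmotic ones. Epb41l4aos had 13.9 and 21.6 CPM before stress and 10.6 and 8.53 CPM at 1 h, and did not pass the test (log2 −0.90, 95% CI −1.57 to −0.23, adjusted p = 0.0585). Its row was accompanied by that of Gm23639, the snoRNA gene in its intron, which held 49 and 41 counts before stress, 1 and 5 counts at 1 h, and 34 and 50 counts at 6 h. When the 2 Nrf2-/- libraries at 1 h were kept in the fit, whose wide spread then counted for every group, the calls of Gas5, Snhg1 and Snhg12 were lost with almost the same fold changes (adjusted p = 0.478, 0.285 and 0.133), and Neat1 alone of the members was called.

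With SFN, 3 of 7 members were lower at 1 h, where 7.55% of all genes were. Gas5 went from 147 and 115 CPM to 88.0 and 94.8 CPM (log2 −0.52, SE 0.11, adjusted p = 0.00292), and Snhg12 from 12.9 and 11.6 CPM to 6.44 and 5.07 CPM (log2 −1.09, SE 0.16, adjusted p = 2.96e-05), and Neat1 fell as given above. Snhg1 had 64.7 and 54.4 CPM before and 41.8 and 47.0 CPM after, which did not pass (log2 −0.43, SE 0.15, adjusted p = 0.0630), although DESeq2 called it (adjusted p = 0.0155). Epb41l4aos had 12.5 and 6.78 CPM before and 9.73 and 10.7 CPM after (log2 0.10, 95% CI −0.59 to 0.78).

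From 1 h to 6 h, 6 of 7 members were higher both with DMSO, where 25.2% of all genes were higher, and with SFN, where 25.4% were. Kcnq1ot1 was the exception in each. With DMSO, Snhg12 rose 2.88-fold to 17.1 and 22.4 CPM (log2 1.53, SE 0.16, adjusted p = 1.09e-08), Snhg1 rose 2.69-fold to 118 and 130 CPM (log2 1.43, SE 0.15, adjusted p = 1.22e-06), and Gas5 rose 1.69-fold to 165 and 175 CPM (log2 0.76, SE 0.11, adjusted p = 1.09e-05). Epb41l4aos rose 2.29-fold to 20.4 and 24.2 CPM (log2 1.20, SE 0.30, adjusted p = 0.00648), a call lost without 1 h replicate 2 (adjusted p = 0.0660) or 6 h replicate 2 (adjusted p = 0.0534). Set against isosmotic cells, the 6 h levels differed by host. With DMSO, Snhg1 stood 1.43-fold above its isosmotic level (log2 0.51, SE 0.14, adjusted p = 0.00705). Snhg12 and Epb41l4aos did not pass, with log2 changes of 0.22 (95% CI −0.09 to 0.53) and 0.30 (95% CI −0.35 to 0.95), nor did Gas5, whose libraries overlapped. The call of Snhg1 was lost without DMSO isosmotic replicate 1 (adjusted p = 0.0988) or without 6 h replicate 2 (adjusted p = 0.0599).

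**Figure D2:**
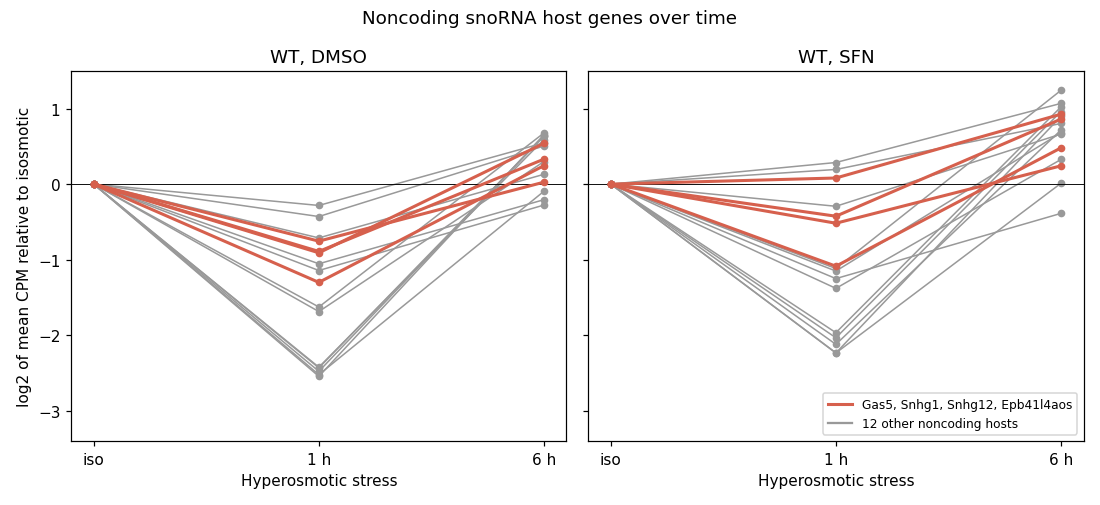
Level of noncoding snoRNA host genes relative to isosmotic cells (log2 of the mean CPM of 2 libraries, minus the isosmotic value) at 1 h and 6 h of stress, with a line for each gene: the 4 member hosts in red and 12 other noncoding hosts with a mean of 1 CPM or more in grey. With DMSO all lines drop at 1 h and most end near or above the isosmotic level at 6 h; with SFN most drop and Epb41l4aos, Zfas1 and Snhg8 do not.

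Other noncoding snoRNA hosts were lower at 1 h as well. Of 15 tested, 9 were lower at 1 h with DMSO and none was higher, and 8 were lower with SFN, with medians of −1.20 and −1.15 on the log2 scale, against −0.00 and 0.02 over all genes. Snhg20 (log2 −2.55, SE 0.23, adjusted p = 7.25e-07), Snhg15 (log2 −2.53, SE 0.14, adjusted p = 1.77e-12) and Dancr (log2 −2.47, SE 0.23, adjusted p = 7.74e-07) fell most with DMSO, and Snhg4 (log2 −2.24, SE 0.12, adjusted p = 1.63e-12) fell most with SFN. From 1 h to 6 h with DMSO, 13 of the 15 were higher, among them Snhg20 (log2 3.18) and Dancr (log2 3.08). At 6 h against isosmotic cells 7 were higher with DMSO and 9 with SFN. Snhg11, called among them, had 0 counts in both isosmotic DMSO libraries and 17 and 19 counts at 6 h, and Snhg5 was lower with SFN (log2 −0.42, adjusted p = 0.0116). The summed level of the other hosts was 327 and 345 CPM in isosmotic DMSO libraries, 144 and 128 CPM at 1 h, and 424 and 441 CPM at 6 h. Of all genes, 9.33% and 7.55% were lower at 1 h with DMSO and with SFN. From 1 h to 6 h with DMSO 25.2% were higher, and at 6 h 28% and 29.6% were higher with DMSO and with SFN. The list was put together with earlier results of these data known.

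Protein-coding hosts, mostly ribosomal protein and translation factor genes with snoRNAs in their introns, changed less in size. Of 22 tested, 7 were lower at 1 h with DMSO, led by Nop56 (log2 −0.33, SE 0.07, adjusted p = 0.00112), with a median of −0.16. At 6 h 12 were higher, led by Ncl, which encodes nucleolin (log2 0.47, SE 0.07, adjusted p = 8.68e-07), and 1 lower, the chaperone Hspa8 (log2 −0.30). From 1 h to 6 h, 21 of the 22 were higher with DMSO and 18 with SFN, beside 25.2% and 25.4% of all genes. The medians there were 0.34 and 0.25 on the log2 scale, against 1.97 and 1.79 for the other noncoding hosts. Of 18 proteins of snoRNA particles and their assembly, 4 were lower at 1 h with DMSO, with the assembly factor Znhit6 falling most (log2 −0.41), and Naf1 was higher (log2 0.22, adjusted p = 0.0475). At 6 h 5 were higher, led by Naf1 (log2 0.69), and 4 were lower, led by Znhit3 (log2 −1.47, SE 0.13, adjusted p = 6.03e-10). Of 15 nonsense-mediated decay factors, 3 were lower at 1 h with DMSO, Upf3a most (log2 −0.30), and 2 were higher, the kinase Smg1 (log2 0.55, adjusted p = 0.0102) and Upf2 (log2 0.44, adjusted p = 0.000203). At 6 h, 7 were higher, led by Smg1 (log2 1.27, SE 0.13, adjusted p = 2.33e-06) and including the helicase Upf1 (log2 0.89), and 6 were lower, led by Magohb (log2 −1.37). Of all 19209 genes tested with DMSO, 2460 were higher and 9.33% lower at 1 h. At 6 h 28% were higher and 28.7% lower, and the 6 h counts of the snoRNA particle proteins were not far from these shares.

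The coding genes across a short gap from the hosts did not follow them at 1 h. Slc3a2, which lies 105 bases from Snhg1 on the opposite strand and encodes an amino acid transporter subunit, had 206 and 240.1 CPM before stress and 237 and 235 CPM at 1 h with DMSO. Trnau1ap, 738 bases from Snhg12, had 41.9 and 45.7 CPM before and 45.0 and 43.6 CPM after, and Epb41l4a, 340 bases from Epb41l4aos, had 86.2 and 87.8 CPM before and 88.3 and 88.2 CPM after. Among the 6 coding neighbours, none was lower at 1 h with DMSO. At 6 h Slc3a2 was higher, as Snhg1 was (log2 0.56, SE 0.08, adjusted p = 1.00e-06), and Trnau1ap (log2 −0.49, SE 0.10, adjusted p = 0.000208) and Epb41l4a (log2 −0.32, SE 0.07, adjusted p = 0.000761) were lower.

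Malat1 followed another course from its genomic neighbour. In DMSO-treated cells it had 675 and 400.1 CPM in isosmotic medium, a wide spread, and 481 and 464 CPM at 1 h, within that spread (log2 −0.19, 95% CI −0.72 to 0.33, adjusted p = 0.611). Leaving out the isosmotic libraries in turn gave 0.22 and −0.52, the latter past the threshold (adjusted p = 0.00997). At 6 h it rose to 1703 and 1526 CPM, 2.95-fold (log2 1.56, SE 0.23, adjusted p = 0.000565). With SFN it had 462 and 522 CPM in isosmotic medium, 420 and 395 CPM at 1 h (log2 −0.27, 95% CI −0.80 to 0.25) and 2034 and 2069 CPM at 6 h, a 4.09-fold rise (log2 2.03, SE 0.23, adjusted p = 0.000121). All 4 libraries at 6 h lay above the other 12. Of 11 mRNAs for nuclear speckle proteins, 5 were higher at 6 h with DMSO, led by the scaffold proteins Srrm2 (log2 0.72, SE 0.09, adjusted p = 3.25e-07) and Son (log2 0.63, SE 0.10, adjusted p = 7.64e-06), and at 1 h 4 were lower, with the splicing factor Srsf5 falling most (log2 −0.80, SE 0.08, adjusted p = 1.25e-07), and Srrm2 was higher (log2 0.28, adjusted p = 0.0268). Acin1 was lower at 6 h (log2 −0.17, adjusted p = 0.0428). Of all genes with DMSO, 9.33% were lower at 1 h, and 28% were higher and 28.7% lower at 6 h.

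Across the members, 2 of 7 were higher (Malat1 and Snhg1) and 1 was lower (Neat1) at 6 h with DMSO against isosmotic cells, where 28% and 28.7% of all genes were higher and lower. With SFN, 5 of 7 were higher and none lower, where 29.6% of genes were higher. Besides Malat1 these were Snhg1 (log2 0.84, SE 0.14, adjusted p = 0.000189), Snhg12 (log2 0.45, SE 0.15, adjusted p = 0.0135), Epb41l4aos (log2 0.91, SE 0.30, adjusted p = 0.0242) and Kcnq1ot1 (log2 0.69, SE 0.23, adjusted p = 0.0130). Snhg12 lost its call without SFN isosmotic replicate 2 (adjusted p = 0.0965) or 6 h replicate 1 (adjusted p = 0.107), Epb41l4aos without SFN isosmotic replicate 2 (adjusted p = 0.0953) or 6 h replicate 2 (adjusted p = 0.173), and Kcnq1ot1 without SFN isosmotic replicate 1 (adjusted p = 0.0876) or 6 h replicate 1 (adjusted p = 0.185). Neat1, lower at 6 h with DMSO (log2 −0.70, SE 0.09, adjusted p = 4.86e-07), was close to its isosmotic level with SFN (log2 0.09, 95% CI −0.09 to 0.28). Epithelial and other markers moved at 6 h too: Pax2 went from 119 and 119.7 CPM to 1136 and 1146 CPM with DMSO, and the summed markers of other cell types went from 15.2 to 17.4 CPM in the isosmotic libraries to 38.8 to 47.6 CPM at 6 h. Their part in the results was not tested.

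**Figure D3:**
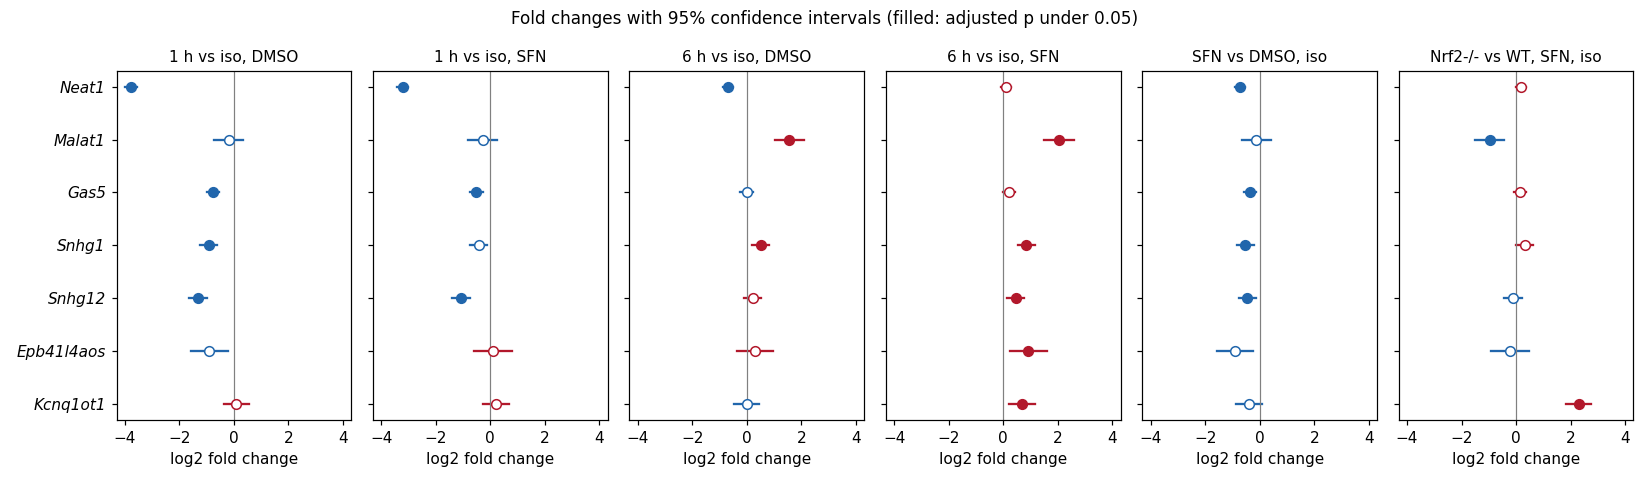
Log2 fold change of the 7 lncRNAs in 6 comparisons, with 95% confidence intervals from the fit on 14 libraries; filled points passed an adjusted p of 0.05, red is higher and blue lower. Neat1 lies at −3.76 and −3.21 in the panels for 1 h of stress, Malat1 at 1.56 and 2.03 in those for 6 h, and Kcnq1ot1 at 2.29 in the panel for Nrf2-/- against WT cells.

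Other long noncoding RNAs, whose place in the cell was not measured here, were divided. Of 12 tested, 5 were lower at 1 h with DMSO and 1 was higher, Xist, the RNA of X inactivation, with 3 and 6 counts before stress and 41 and 25 counts at 1 h (log2 2.91, SE 0.73, adjusted p = 0.00520). Mir17hg, the precursor transcript of the microRNA cluster of that name, fell most (log2 −4.02, SE 0.21, adjusted p = 1.12e-10), followed by Mir22hg, the host of a microRNA (log2 −2.95, SE 0.15, adjusted p = 1.43e-13), and Lncpint, a transcript induced by p53 (log2 −1.71, SE 0.36, adjusted p = 0.00116). Mir17hg fell by 4.02 and Neat1 by 3.76 on the log2 scale in the same comparison. At 6 h with DMSO, 2 were higher (Mir17hg, log2 1.13, and Pvt1, log2 0.76) and 3 lower, led by Firre (log2 −1.36, SE 0.12, adjusted p = 1.16e-09), an X-linked RNA that shapes nuclear architecture. Of all genes, 9.33% were lower at 1 h with DMSO, and 28% were higher and 28.7% lower at 6 h.

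Kcnq1ot1 was not called with stress in DMSO-treated WT cells. It had 5.81 and 3.94 CPM in isosmotic DMSO libraries, 5.39 and 5.01 CPM at 1 h (log2 0.09, 95% CI −0.37 to 0.56) and 5.97 and 3.86 CPM at 6 h, all overlapping. With SFN it had 3.35 and 4.02 CPM before stress, 3.65 and 4.85 CPM at 1 h and 6.96 and 5.20 CPM at 6 h; the 6 h level passed against isosmotic cells, as given above, but not against 1 h (log2 0.49, adjusted p = 0.0750).

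The effect of SFN on its own was read in isosmotic WT cells. There 4 of 7 members were lower and none higher, where 7.3% of all genes were lower. Neat1 went from 379 and 387 CPM with DMSO to 252 and 210.1 CPM with SFN, 1.66-fold lower (log2 −0.73, SE 0.09, adjusted p = 3.50e-06). The 3 hosts changed less: Snhg1 by a log2 of −0.52 (SE 0.14, adjusted p = 0.0268), Snhg12 by −0.45 (SE 0.15, adjusted p = 0.0480) and Gas5 by −0.35 (SE 0.11, adjusted p = 0.0372). Epb41l4aos had 12.5 and 6.78 CPM against 13.9 and 21.6 CPM and did not pass (log2 −0.90, 95% CI −1.57 to −0.23, adjusted p = 0.0763). Of the 15 other noncoding hosts, 3 were lower as well: Snhg8 (log2 −0.83), Zfas1 (log2 −0.51) and Snhg4 (log2 −0.36). All 6 Nrf2 target genes on the check list were higher in the same comparison, with Slc7a11 at a log2 of 2.39. In isosmotic SFN-treated Nrf2-/- cells, 5 of the 6 were lower than in WT cells. Slc7a11 was the 1 that was higher there, at 73.4 and 67.8 CPM against 37.3 and 41.5 CPM in WT. The calls of Gas5, Snhg1 and Snhg12 each ended without SFN isosmotic replicate 2 (adjusted p = 0.349, 0.252 and 0.266) and without DMSO isosmotic replicate 2 (adjusted p = 0.354, 0.281 and 0.171), and that of Snhg12 also without DMSO isosmotic replicate 1. With all 16 libraries in the fit no member was called. Of 13 collecting duct markers 6 were lower and 1 higher, with Epcam at 80.8 and 89.8 CPM with DMSO and 50.3 and 47.3 CPM with SFN, and their part in these results was not tested.

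Under stress, no member was called between SFN- and DMSO-treated WT cells in the fit on 14 libraries. At 1 h and at 6 h, 0 of 7 members were called by edgeR, where 0.479% and 0.213% of all genes were called. DESeq2 called 0 members as well, beside 0.828% and 0.448% of all genes. In edgeR 0 members had an unadjusted p under 0.05, as 1274 and 1572 of 19209 genes did. With shares this small, 0 of 7 cannot show that SFN had no effect. The differences for Neat1 were −0.19 (95% CI −0.39 to 0.02) at 1 h and 0.06 (95% CI −0.13 to 0.25) at 6 h on the log2 scale. Malat1 at 6 h differed by 0.34 (95% CI −0.18 to 0.87). With only the libraries compared in the fit, Malat1 was called at both times, lower with SFN at 1 h (log2 −0.22, adjusted p = 1.88e-05) and higher at 6 h (log2 0.35, adjusted p = 0.00237). The shares of all genes called in those fits were 4.948% at 1 h and 0.623% at 6 h.

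Whether SFN changed the response to stress was tested as an interaction. Neat1 was called at both times, with a change under stress that was higher with SFN than with DMSO by 0.55 at 1 h (SE 0.13, adjusted p = 0.0223) and by 0.79 at 6 h (SE 0.13, adjusted p = 0.000298) on the log2 scale. It was the only 1 of 7 members called higher, where 2.06% and 2.21% of all genes were. At 1 h this difference arose between log2 changes of −3.76 with DMSO and −3.21 with SFN, from isosmotic means of 383 CPM with DMSO and 231 CPM with SFN to 28.4 and 24.9 CPM, so that the isosmotic levels were called different and the stressed levels were not. Epb41l4aos (log2 0.99, 95% CI 0.04 to 1.95, adjusted p = 0.286) and Snhg1 (log2 0.49, 95% CI 0.05 to 0.93, adjusted p = 0.255) did not pass at 1 h. The 1 h call of Neat1 was lost when any 1 of 6 of the 8 libraries involved was left out (adjusted p from 0.0503 to 0.130).

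Loss of Nrf2 was read in isosmotic SFN-treated cells, where 1 of 7 members was higher and 1 lower, beside 21.8% and 24.6% of all genes. Kcnq1ot1 rose 4.90-fold in Nrf2-/- cells, from 3.35 and 4.02 CPM to 19.9 and 16.01 CPM (log2 2.29, SE 0.22, adjusted p = 5.04e-09). All 4 Nrf2-/- libraries, at 11.8 to 24.2 CPM, lay above all 12 WT libraries, at 3.35 to 6.96 CPM. Malat1 was 1.97-fold lower, with 215 and 279 CPM against 462 and 522 CPM (log2 −0.98, SE 0.23, adjusted p = 0.00868), a call that was lost without SFN isosmotic WT replicate 2 (adjusted p = 0.0508) or without Nrf2-/- replicate 1 (adjusted p = 0.0783). Neat1, with 241 and 272 CPM against 252 and 210.1 CPM, did not pass (log2 0.17, 95% CI −0.02 to 0.36), and neither did Snhg1, with 60.1 and 86.7 CPM against 64.7 and 54.4 CPM (log2 0.32, 95% CI 0.01 to 0.63). The other 3 hosts had log2 differences between −0.22 and 0.14 and did not pass.

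In the imprinted domain of Kcnq1ot1, 8 of the 13 genes listed were tested, and in the Nrf2-/- cells 2 were higher and 4 lower. Of all genes, 21.8% were higher and 24.6% lower in this isosmotic comparison, the shares beside which all counts of this paragraph stand. Phlda2, which restrains placental growth (log2 0.94, SE 0.24, adjusted p = 0.00195), and the tetraspanin Cd81 (log2 0.81, SE 0.07, adjusted p = 1.54e-09) were higher. Tssc4 was lower (log2 −0.78, SE 0.13, adjusted p = 1.13e-05). Cdkn1c, a cell cycle inhibitor, had 15 and 31 counts in isosmotic SFN-treated WT libraries and 0 in all 4 Nrf2-/- libraries, and Slc22a18 had 16 and 30 counts against 0 and 0, so no fold is given for them. Of the 12 other lncRNAs tested, 8 were higher and 2 lower, with a median log2 difference of 1.00 against 0 over all genes. H19, an imprinted RNA, was higher (log2 1.59, SE 0.20, adjusted p = 2.19e-07), Mir22hg was lower (log2 −1.23, SE 0.14, adjusted p = 4.30e-08), and Airn, the antisense RNA of another imprinted domain, had 19 and 34 counts in the WT and 0 in the 4 Nrf2-/- libraries. Of the 15 other noncoding hosts, 6 were lower and 1, Snhg14, which overlaps the imprinted Ube3a region, was higher (log2 2.51, SE 0.30, adjusted p = 1.30e-07). Epithelial markers differed as well: Pax2 had 139 and 146 CPM in WT and 27.5 and 26.2 CPM in Nrf2-/- libraries, and Epcam 50.3 and 47.3 CPM against 264 and 304 CPM. Of 13 such markers 4 were higher and 4 lower, and their part in these results was not tested.

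**Figure D4:**
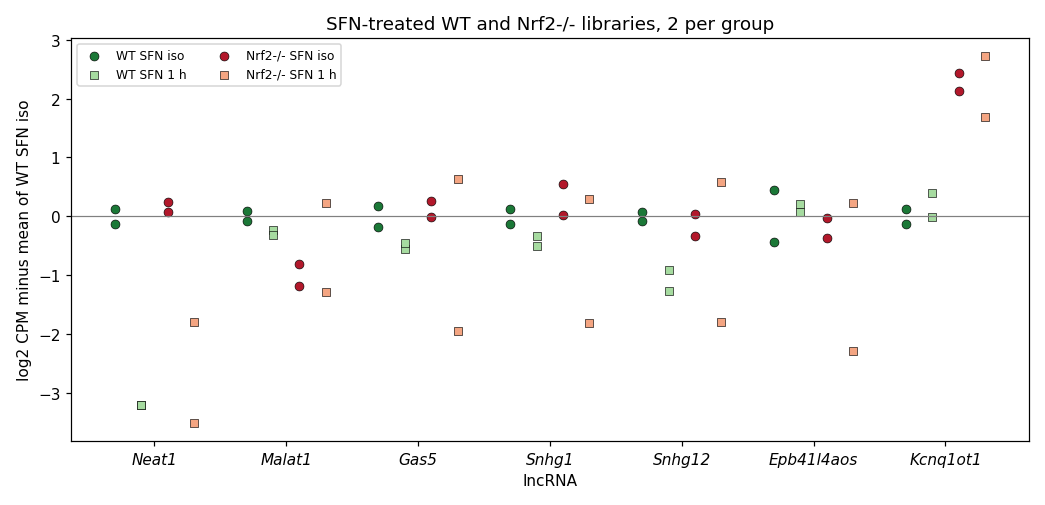
Level of the 7 lncRNAs in SFN-treated WT and Nrf2-/- libraries (log2 CPM minus the mean of the isosmotic SFN-treated WT libraries), with a point for each of 2 libraries per group; circles are isosmotic and squares 1 h of stress. Kcnq1ot1 lies above WT in all 4 Nrf2-/- libraries. The 2 Nrf2-/- libraries at 1 h, squares in light orange, lie apart for all 7 members.

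At 1 h of stress the 2 Nrf2-/- libraries disagreed on all 7 members. Gas5 had 202 CPM in replicate 1 and 33.5 CPM in replicate 2, with 7121 and 1162 counts behind these values. Neat1 had 66.3 and 20.2 CPM, Malat1 575 and 201 CPM, Snhg1 73.0 and 17.0 CPM, Snhg12 18.2 and 3.52 CPM, and Epb41l4aos 10.8 and 1.87 CPM, each higher in replicate 1. Kcnq1ot1 went the other way, with 11.8 and 24.2 CPM. Among 17 noncoding hosts with a count in either library, members included, 16 were lower in replicate 2 than in replicate 1. Replicate 2 lay below both isosmotic Nrf2-/- libraries for all 17, and replicate 1 for 7 of them. The share of all genes that split in these ways was not computed. The biological coefficient of variation of this pair over all genes was 0.348, so these counts are not shown to be particular to the hosts.

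Even so, Neat1 was lower at 1 h than in isosmotic Nrf2-/- cells, 5.93-fold (log2 −2.57, SE 0.39, adjusted p = 0.00274), and both stressed libraries lay below both isosmotic ones at 241 and 272 CPM. It was the 1 member called of 7, where 2.81% of all genes were lower; without replicate 1 its log2 change was −3.67 and without replicate 2 −1.95, and with only the libraries compared the call was lost (log2 −2.56, adjusted p = 0.0981). Against SFN-treated WT cells at 1 h, Kcnq1ot1 was 4.23-fold higher (log2 2.08, SE 0.32, adjusted p = 0.000178) and was the 1 member called, where 15.3% of all genes were higher. Neat1 did not pass (log2 0.80, 95% CI −0.04 to 1.63, adjusted p = 0.141), and the 2 libraries lay on either side of the WT values of 25.0 and 24.8 CPM. Leaving out Nrf2-/- replicate 1 or replicate 2 gave opposite signs for Gas5 (log2 −1.44 and 1.14), Snhg1 (−1.38 and 0.72) and Snhg12 (−0.70 and 1.66). The direction of these hosts rests on which library is kept. The interaction of genotype and stress was called for 0 of 7 members by edgeR, where 0.123% of all genes were called. DESeq2 called 0 members as well, beside 0.656% of all genes. In edgeR 0 members had an unadjusted p under 0.05, as 1433 of 19509 genes did. For Neat1 the interaction was 0.65 (95% CI −0.51 to 1.81), and it turned to −0.45 without replicate 1 and rose to 1.26 without replicate 2.

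Over the 8 group means of log2 CPM, the members fell into different patterns. Gas5 and Snhg1 were most alike (Pearson r = 0.952), and Neat1 had an r of 0.935 with Gas5 and 0.913 with Snhg12 but 0.372 with Malat1. Kcnq1ot1 had a negative r with each other member, from −0.616 with Epb41l4aos to −0.071 with Neat1. Among all genes with a mean of at least 10 CPM, those most like Neat1 were Zcchc3 (r = 0.988), Rab10os (r = 0.985) and Snhg15 (r = 0.980). Snhg4 (r = 0.976) came first for Gas5, whose 3 most alike genes also held Mir17hg (r = 0.970). For Snhg1 they were 2700081O15Rik (r = 0.985) and Taf1d (r = 0.985), for Malat1 Bdkrb2 (r = 0.990), for Epb41l4aos Plekhj1 (r = 0.990) and for Kcnq1ot1 Rab31 (r = 0.998). The 8 points share libraries, scaling and depth, and the values are descriptions.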

How the data were processed

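Total RNA was extracted with TRIzol and sequenced on the Illumina NovaSeq platform by the authors. The sample titles and the paper name mIMCD3 cells, but the extraction protocol in the sample labels names primary tubular cells. The libraries were taken as mIMCD3. Whole-number read counts per gene symbol were deposited, 1 file per library; the methods name Hisat2, the submitters' processing notes Bowtie2, and both SAMtools, featureCounts and mm10. The gene annotation, strand setting and library kit are not given in the sources used here. Among counts from 1 to 10, 58.0% to 68.5% were even; whether both reads of a pair were counted was not tested. Rows with no gene symbol, at most 3 per library, were left out.

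Groups and replicate numbers came from the sample titles, whose numbers differ from those in the names of the deposited tables for isosmotic SFN-treated WT cells. Counts were tested with edgeR 4.0.16 in R 4.3.3 (TMM, filterByExpr, robust quasi-likelihood F-test, Benjamini-Hochberg over all genes tested, adjusted p under 0.05), with DESeq2 1.42.0 as an alternative; 95% confidence intervals are unadjusted. Comparisons without stressed Nrf2-/- cells were fitted on 14 libraries (19209 genes), the others on 16 (19509 genes). CPM and RPKM were computed from the counts, with TMM factors of 16 libraries and a prior count of 2 in log2 CPM. Exact permutation of 2 against 2 libraries cannot go below p = 0.333 and was not used.

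The members, gene lists and the choice of 14 libraries were made with earlier results of these data known. Named were all members, up to 3 genes per list and direction with the largest change among those called, and the 3 genes most like each member; the text gives some of these. Promoters and start sites are from RefSeq. Alternatives tried were DESeq2, its size factors, no filter on low counts, a replicate block, other sets of libraries and leaving out each library.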

Additional observations from a re-analysis of the deposited data

Results flagged for a closer look

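Neat1 was the member whose response to stress differed between SFN- and DMSO-treated WT cells by a test of the difference itself. The difference of the log2 changes was 0.55 at 1 h (SE 0.13, adjusted p = 0.0223, edgeR quasi-likelihood test) and 0.79 at 6 h (SE 0.13, adjusted p = 0.000298). Its level differed in isosmotic medium, at 231 CPM with SFN and 383 CPM with DMSO, and was close at 1 h (24.9 and 28.4 CPM) and at 6 h (251 and 241 CPM). The 6 h difference ranged from 0.64 to 0.92 when libraries were left out in turn and kept its call in each; the 1 h difference ranged from 0.43 to 0.67 and lost its call in 6 of those 8 fits. No group held more than 2 libraries, so no library was tested for standing apart within its group.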

How the results depend on the processing

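The choice of libraries mattered most. With all 16 libraries in the fit, the members called dropped from 4 to 1 for 1 h of stress with DMSO, 3 to 1 for 6 h with DMSO, 3 to 1 for 1 h with SFN, 5 to 1 for 6 h with SFN, 6 to 3 for 6 h against 1 h with SFN, 4 to 0 for SFN alone, 2 to 1 for isosmotic Nrf2-/- cells, and 1 to 0 for each SFN interaction, while genes called overall dropped from 4253 to 2186 for 1 h with DMSO and from 2786 to 555 for SFN alone. In the same fits, the share of all genes called was 45.9% for 6 h with DMSO and 9.52% for 1 h with SFN. It was 47.6% for 6 h with SFN, 42.6% for 6 h against 1 h with SFN and 34.1% for isosmotic Nrf2-/- cells. For the SFN interactions it was 0.559% at 1 h and 0.759% at 6 h. The other noncoding hosts, to which the same alternatives were applied after seeing the data, went from 9 to 7 lower at 1 h with DMSO and from 7 to 2 and 9 to 2 higher at 6 h with DMSO and SFN, and from 13 to 8 for 6 h against 1 h with DMSO. With only the libraries compared, 5 members were called for 1 h with SFN and 2 for SFN alone, beside 15.89% and 7.056% of genes. In those fits 1 was called for SFN against DMSO at 1 h and 1 at 6 h, beside 4.948% and 0.623% of genes. For 1 h in Nrf2-/- cells 0 were called, beside 0.045% of genes. Without the filter on low counts, 5 were called for Nrf2-/- against WT at 1 h and 3 for stress in Nrf2-/- cells. The shares of all genes there were 18.48% and 6.09%. The 1 h SFN interaction then had 3 members and the genotype interaction 2, beside 2.95% and 0.458% of genes. DESeq2 gave 2 of 7 for Nrf2-/- against WT at 1 h, which does not exceed the 34.041% of all genes called. Whether same-numbered libraries form pairs was not settled. Over 28 pairs of groups the correlation of their deviations ran from −0.464 to 0.636 and passed 0.1 in 5. The replicate numbers of isosmotic SFN-treated WT cells differ between titles and deposited tables, so neither this check nor a replicate block can decide it. The replicate block took SFN alone from 4 to 2 members, beside 14.5% and 13.7% of all genes called. It moved no other count of members by over 1.5 times.

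Leaving out a library left 1 library in its group, so only log2 changes are given here for those fits. Of the log2 changes of the 7 members over all comparisons, 37 had passed and none of these turned its direction under any alternative, while 35 of the 68 that had not passed turned when a library was left out. In WT cells under stress these included Malat1 (−0.52 to 0.22) and Kcnq1ot1 (−0.16 to 0.38) at 1 h with DMSO, Epb41l4aos at 1 h with SFN (−0.29 to 0.58), and Neat1 at 6 h with SFN (−0.064 to 0.22) and for SFN against DMSO at 6 h (−0.090 to 0.19). For Nrf2-/- against WT at 1 h they were Neat1 (−0.29 to 1.41), Malat1 (−1.01 to 0.50), Gas5 (−1.44 to 1.14), Snhg1 (−1.38 to 0.72), Snhg12 (−0.70 to 1.66) and Epb41l4aos (−2.43 to 0.075), for stress in Nrf2-/- cells Malat1 (−0.30 to 1.22), Gas5 (−2.09 to 0.50), Snhg12 (−1.67 to 0.71), Epb41l4aos (−2.11 to 0.41) and Kcnq1ot1 (−0.61 to 0.43), and in the genotype interaction all 7, Neat1 from −0.45 to 1.26. Under other alternatives 4 turned: Gas5 and Kcnq1ot1 at 6 h with DMSO (up to 0.12 and 0.11), Snhg1 for Nrf2-/- against WT at 1 h with the replicate block (−0.023) and Kcnq1ot1 for stress in Nrf2-/- cells without the filter (−0.0022). The causes were not tested. Depth was lowest for Epb41l4aos, at 65 counts in Nrf2-/- replicate 2 at 1 h, and all other member values rested on more counts.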
